A study of Mus musculus with 6 samples.

Results

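Type I interferon-stimulated genes were followed in activated CD4 T cells with and without Foxo1. The group held 45 listed genes matched by symbol, targets and components of the type I interferon response. The rule uses no measured value, but the list was drawn up with earlier results of these data known. The deposited normalized table of 13564 genes held 43 of the 45, and Oas2 and Ifi44 were not among its rows. From the deposited counts 44 could be tested among 13691 genes, and Oas2 had too few counts. Foxo1TKO mice carry Cd4-Cre and floxed Foxo1 alleles, so that Foxo1 is deleted in all T cells, and Foxo1Ctrl mice carry the floxed alleles without Cre. Both were C57BL/6 Foxp3-GFP mice, and 3-month-old animals were the study's young adults. Naive CD4 T cells were flow sorted from pooled lymph nodes and kept in culture for 4 days, stimulated by 0.1 µg/ml of the anti-CD3 clone 145-2C11 beside splenocytes of CD3eKO mice, which have no T cells and present the antibody. The sample labels give 50000 naive cells and 250000 splenocytes. The paper's methods give more naive cells for the same number of splenocytes, so the ratio of the 2 is not settled. Total RNA of 3 cultures per genotype was sequenced. No source says whether the T cells were parted from the splenocytes before RNA extraction, or whether replicates came from separate mice, so p-values measure the spread between these libraries. In such bulk RNA, fewer expressing cells and less RNA per cell cannot be told apart.

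Type I interferons bind a receptor of 2 chains, Ifnar1 and Ifnar2, which carry the kinases Tyk2 and Jak1. These phosphorylate STAT factors, which join Irf9 into a complex that binds the interferon-stimulated response element (ISRE) before its target genes. Their products detect viral RNA, block its translation, restrict viral replication or feed back on the pathway, and T cells keep many of them at a low level without infection. Type II interferon (Ifng) acts mainly through gamma-activated sites (GAS), and many genes answer to both.

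The libraries held 14783853 to 19675407 expected counts, and values below are TMM-normalized counts. Foxo1 itself lay between 46.5 and 115 in Foxo1TKO and between 1529 and 2285 in Foxo1Ctrl libraries (edgeR quasi-likelihood test, adjusted p = 0.000195). The 8 T cell markers summed to 156873 to 175624 in Foxo1TKO and 175910.3 to 209702 in Foxo1Ctrl, and 0 of 8 passed the test. Libraries differed in how counts followed the GC content of genes. The slope was -0.40 (log2 per 10 points of GC) in Foxo1Ctrl replicate 2 and 0.35 in Foxo1TKO replicate 1, against -0.08 to 0.09 in the other 4, and the values of GC-rich members are to be read beside it.

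Sequence before the start sites was searched for the letters of interferon elements. RefSeq windows (GRCm38.p6, 250 bases before to 50 after the start) were given for 36 of 45 members. The ISRE core TTCNNTTTC, read on both strands, was found in 16 of the 36 (44.4%) and in 9.76% of 27025 genes with a window. Ifit1, Ifit3, Phf11b and Trim30a are printed because they hold the core and fell in Foxo1TKO. Isg15, Bst2 and Ifih1 are printed because they hold the same core and did not pass the test. Capitals mark the core, or its reverse complement, in the gene's own 5′ to 3′ direction.
Ifit1, chr19:34640768-34640825, plus strand: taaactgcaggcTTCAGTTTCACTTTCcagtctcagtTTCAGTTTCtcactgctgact
Ifit3, chr19:34583362-34583447, plus strand: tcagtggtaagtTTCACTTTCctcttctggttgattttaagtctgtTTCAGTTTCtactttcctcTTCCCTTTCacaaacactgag
Phf11b, chr14:59341360-59341392, minus strand: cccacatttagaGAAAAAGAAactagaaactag
Trim30a, chr7:104465208-104465240, minus strand: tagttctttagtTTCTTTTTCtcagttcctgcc
Isg15, chr4:156200864-156200908, minus strand: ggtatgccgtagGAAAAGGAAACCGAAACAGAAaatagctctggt
Bst2, chr8:71537576-71537614, minus strand: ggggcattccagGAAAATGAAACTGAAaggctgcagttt
Ifih1, chr2:62646347-62646379, minus strand: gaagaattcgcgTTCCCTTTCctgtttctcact
Ifit3b, a near copy of Ifit3, holds the stretch printed for Ifit3 letter for letter at chr19:34607758-34607843. The core was in the windows of 6 of the 17 members that fell and of 10 of the 19 that did not pass the test. Those 10 include Isg15, Ifi44 and Rsad2, which were lower without overlap but did not pass. These counts therefore cannot show whether the core goes with a fall. The GAS letters TTCNNNGAA were in 10 of 36 members (27.8%) and 9.55% of genes. The forkhead letters TGTTTAC, the kind of site Foxo1 binds, were in 2 of 36 (5.56%, Pml and Rsad2) and in 4.05% of genes. A match describes letters and is not a bound site.

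Of the 44 members tested, 22 were lower in Foxo1TKO and 0 were higher (adjusted p under 0.05 and fold change over 1.5). Among all genes tested 11.8% were lower and 11.1% were higher by the same rule. No member was higher at an unadjusted p under 0.05 either, and DESeq2 also found 0 higher and 27 lower. The median log2 fold change of the members was -1.02, against 0.01 for all genes tested, and 43 of 44 values were below 0, against 49.4% of all genes. In 30 members every Foxo1TKO library lay under every Foxo1Ctrl library, which held for 21.2% of all genes. The shift was present in each library: the median deviation of the 44 members from their own means was -0.40, -0.45 and -0.56 on the log2 scale in the Foxo1TKO libraries, and 0.63, 0.50 and 0.48 in the Foxo1Ctrl libraries. The falls ranged from 1.67-fold to 13.9-fold and were uneven between members of 1 pathway, as the roles below show. Counts by role and list below are to be read beside the 11.8% of all genes that were lower.

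**Figure D1:**
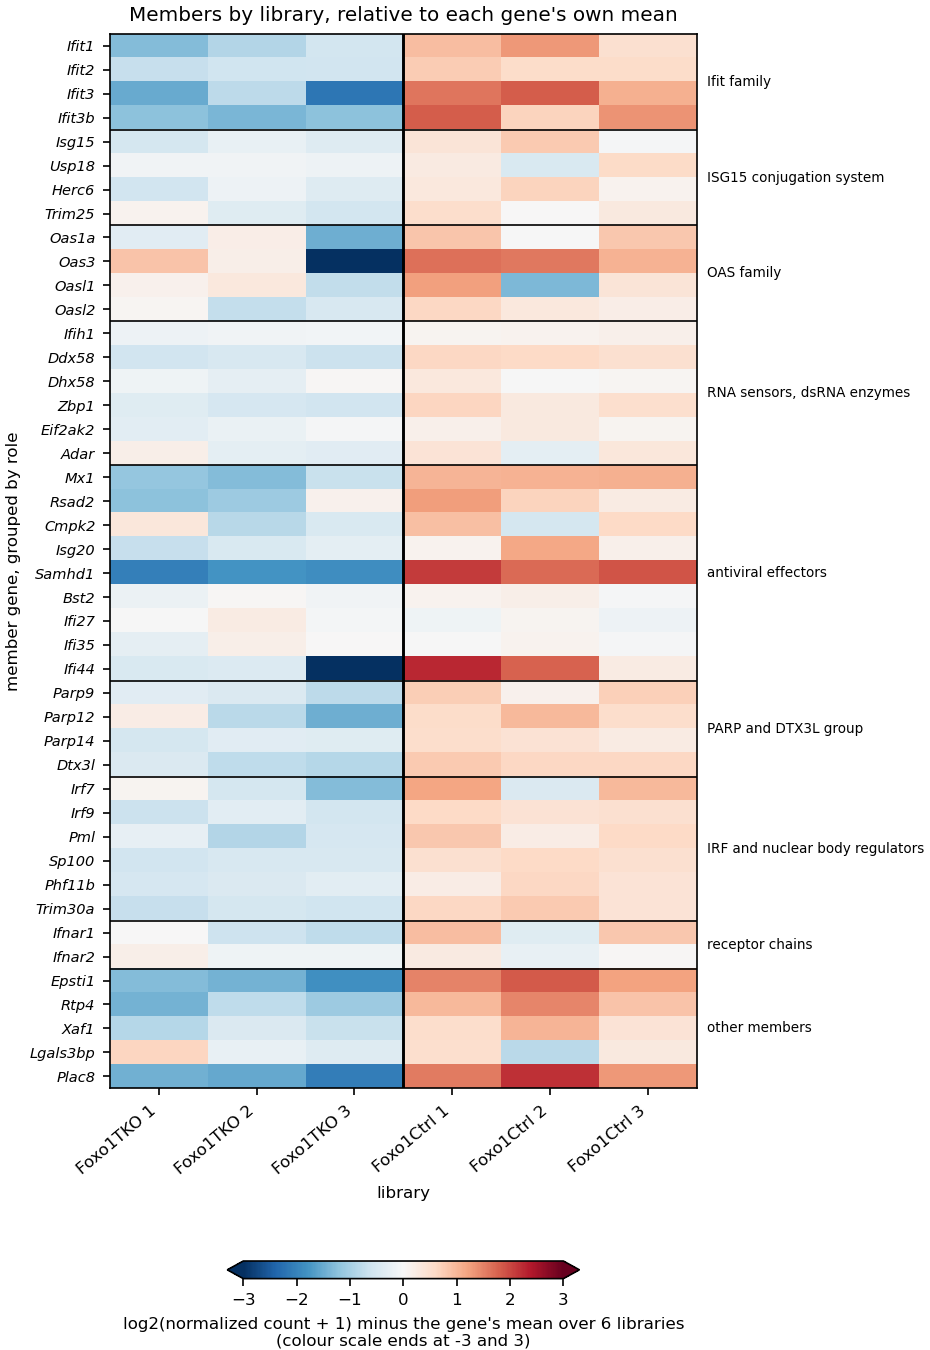
Rows are the 44 tested members grouped by role and columns are the 6 libraries. Colour is log2(normalized count + 1) minus the gene's mean over the 6 libraries. Blue fills most of the Foxo1TKO side, where 33 to 41 members lay under their own mean, and Foxo1Ctrl replicate 2 is the control library with the most members under theirs (10).

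**Figure D2:**
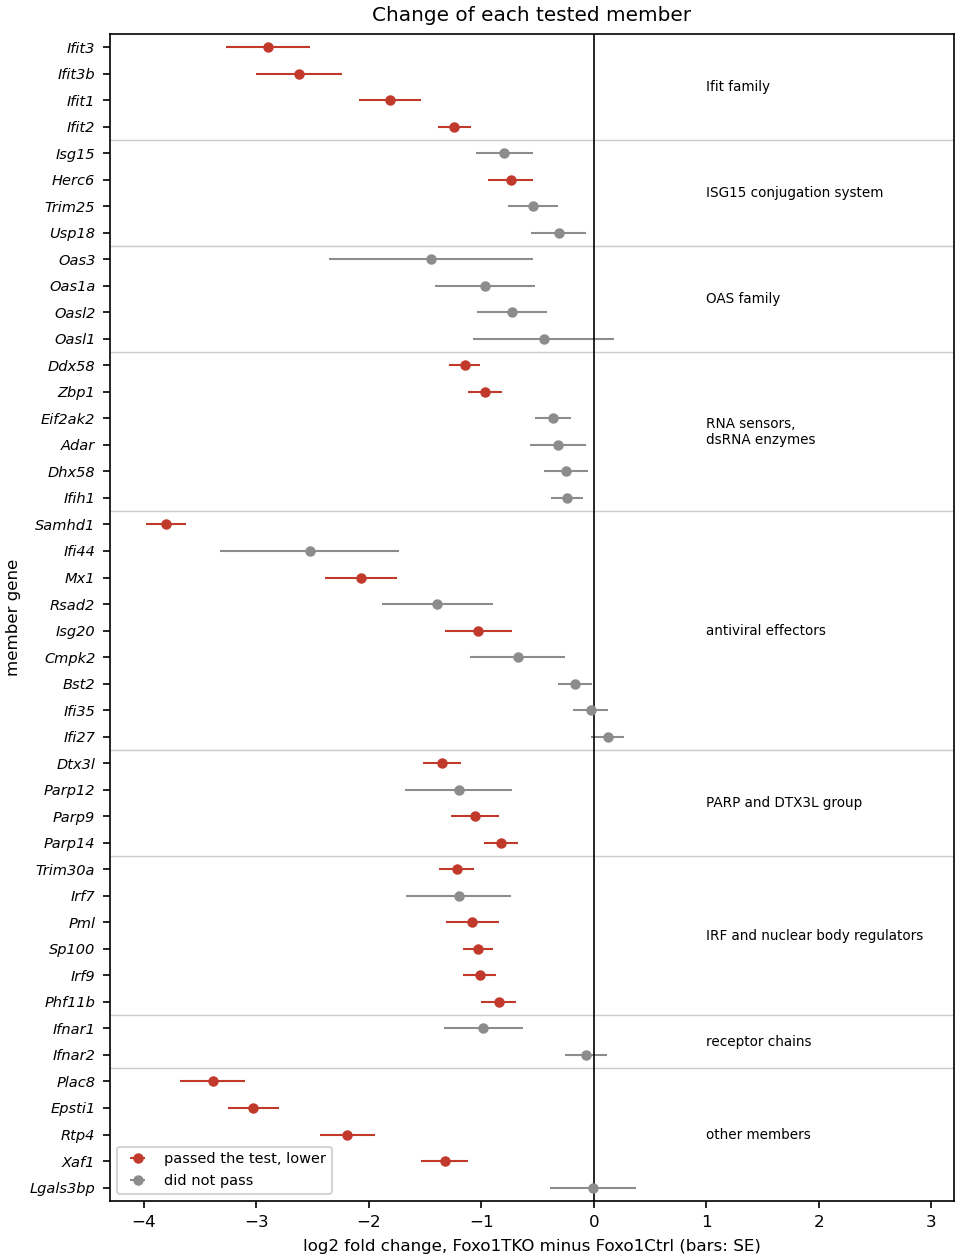
Points are log2 fold changes of Foxo1TKO against Foxo1Ctrl with bars of 1 SE, grouped by role. Red points passed the test and all lie below 0, from -0.74 (Herc6) to -3.80 (Samhd1), while Ifi27 (0.12) is the single point above 0.

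Samhd1, a hydrolase that empties the nucleotide pool used by retroviruses and DNA synthesis, fell furthest of the members. Its counts were 2141, 2534 and 2425 in Foxo1TKO and 37881, 28633 and 32571 in Foxo1Ctrl. The genotypes were far apart and the replicates close together, a 13.9-fold fall (log2 fold change -3.80, SE 0.18, adjusted p = 3.42e-05). Per length it was the most abundant member in Foxo1Ctrl (1234 ± 260 TPM, SD, n = 3) and ranked 6 in Foxo1TKO (93.6 ± 3.86 TPM). Samhd1 (ENSMUSG00000027639) spans chr2:157097533-157135265 on the minus strand of GRCm38. Its RefSeq window holds no ISRE core and 1 match to the GAS letters, in capitals here because it lies before the most changed member.
Samhd1, chr2:157135311-157135343, minus strand: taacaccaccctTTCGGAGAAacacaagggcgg
The next largest falls were outside the classical effectors. Plac8, a small cysteine-rich protein, had 434, 404 and 276 counts in Foxo1TKO and 3445, 5323 and 2906 in Foxo1Ctrl, a 10.4-fold fall (adjusted p = 0.000251). Epsti1, an interferon-induced protein, had 835, 768 and 574 against 5691, 7332 and 4717, an 8.13-fold fall (adjusted p = 0.00016). In both genes the control counts varied more than the Foxo1TKO counts, with Foxo1Ctrl replicate 2 highest, and the genotypes did not overlap. On the log2 scale the spreads were closer. The log2 SD of Plac8 was 0.35 in Foxo1TKO and 0.45 in Foxo1Ctrl, and that of Epsti1 was 0.28 and 0.32. Rtp4, a receptor chaperone that binds viral RNA, had 288, 459 and 362 against 1517, 2151 and 1397 (4.56-fold, adjusted p = 0.000824). Xaf1, a proapoptotic antagonist of XIAP, fell 2.5-fold (835 ± 120 against 2091 ± 504, n = 3 per genotype, edgeR adjusted p = 0.00359). Lgals3bp, a secreted glycoprotein, stood apart from these: 1866, 1018 and 917 in Foxo1TKO and 1685, 676 and 1458 in Foxo1Ctrl, with full overlap and a log2 fold change of -0.01 (SE 0.38).

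**Figure D3:**
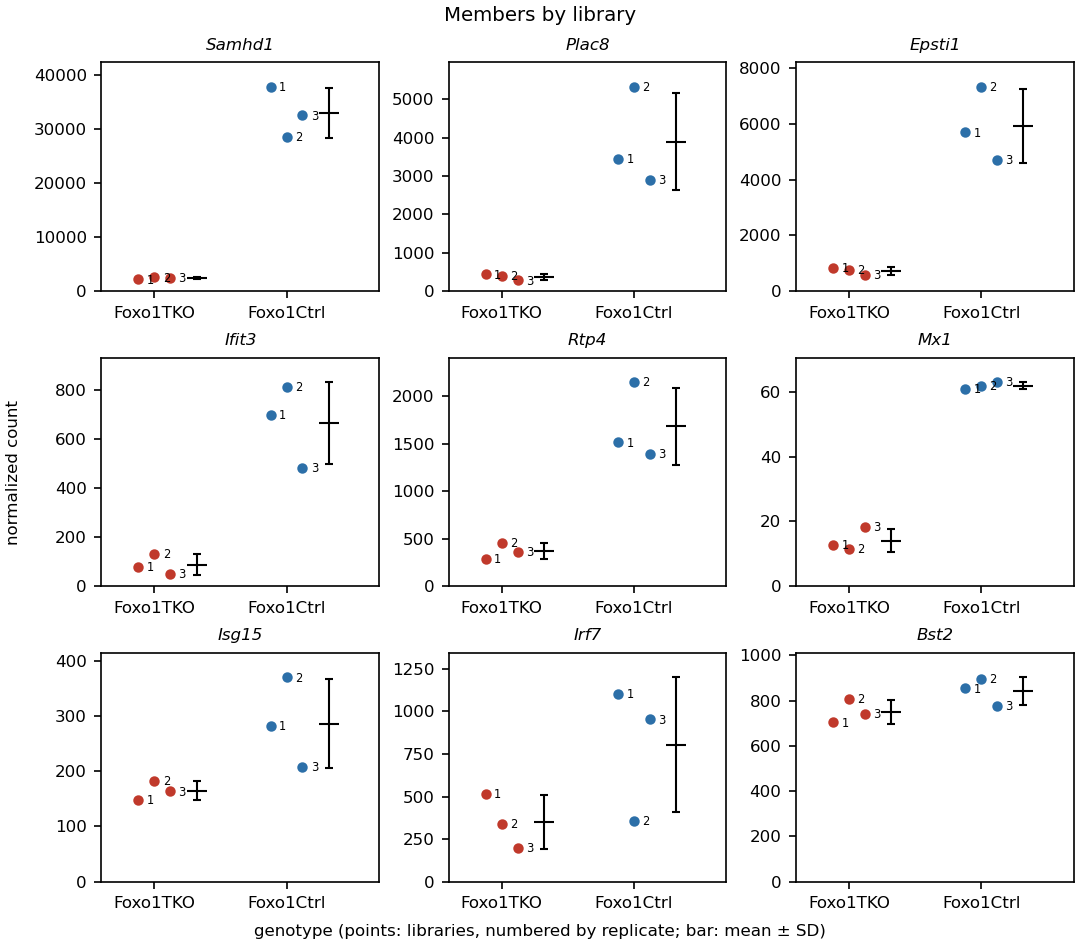
Each panel plots the normalized counts of 1 member, on a linear axis from 0, in the 3 libraries of each genotype (points, numbered by replicate) with the mean and SD. Samhd1, Plac8, Epsti1, Ifit3, Rtp4 and Mx1 show no overlap, Isg15 a narrow gap, Irf7 a low Foxo1Ctrl replicate 2 (357) inside the Foxo1TKO range, and Bst2 overlapping groups.

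The Ifit family, proteins that bind viral RNA lacking host cap marks and block its translation, fell in all 4 of 4 members. Ifit3 had 80.3, 133 and 50.4 counts in Foxo1TKO and 699, 812 and 482 in Foxo1Ctrl (7.44-fold, log2 fold change -2.90, SE 0.38, adjusted p = 0.00151). Ifit3b had 11.8, 10.5 and 11.8 against 104, 46.9 and 74.6 (6.14-fold, adjusted p = 0.00254). Ifit3b was thus near the minimum of 10 counts in Foxo1TKO, and the other family members lay above it. Ifit1 had 220, 294 and 369 against 1024, 1329 and 754 (3.51-fold, adjusted p = 0.00295). Ifit2 had 572, 603 and 619 against 1552, 1349 and 1338 (2.36-fold, adjusted p = 0.00106). In all 4 the genotypes were separate, and the fall kept its call when any 1 library was left out. Ifit3 and Ifit3b share an unbroken run of 169 of the 300 bases of their start-site windows, and the expected counts of Ifit1, Ifit3 and Ifit3b were not whole in any library, so the division of reads within the family is uncertain. These genes lie in 1 cluster on chromosome 19 (chr19:34550694-34650009 from the start of Ifit2 to the end of Ifit1, GRCm38).

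The ISG15 conjugation system changed less. Isg15, the ubiquitin-like modifier, had 148, 182 and 163 counts against 281, 369 and 207, with no overlap but a narrow gap (1.73-fold lower, adjusted p = 0.0569, not passed). It passed with DESeq2 (adjusted p = 0.026), with the GC correction (0.0458) and without Foxo1Ctrl replicate 3 (0.0399). Herc6, the mouse ligase for ISG15, fell 1.67-fold (522, 698 and 596 against 970, 1222 and 836, adjusted p = 0.0314). That call was lost on leaving out any library other than Foxo1Ctrl replicate 3, with adjusted p between 0.053 and 0.088, and with the GC correction, where the change was under 1.5-fold (log2 fold change -0.58). Usp18, the protease that removes ISG15 and also inhibits Ifnar2, had 1209, 1198 and 1158 against 1560, 946 and 1923, where Foxo1Ctrl replicate 2 was the lowest of all 6 (adjusted p = 0.405). Trim25, a ubiquitin ligase of the RIG-I pathway, had 842, 607 and 533 against 1132, 789 and 966 with overlap (adjusted p = 0.123), and passed without Foxo1TKO replicate 1 (log2 fold change -0.76, adjusted p = 0.0419).

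None of the 4 OAS family members tested passed, although all had negative log2 fold changes. OAS enzymes make 2-5A, which activates RNase L, and Oasl1 and Oasl2 are OAS-like proteins. Oas1a, the most abundant, had 69.3, 102 and 31.1 against 157, 86.9 and 155 (adjusted p = 0.156). Oas3 had 71.8, 44.8 and 0 against 125, 120 and 82.4, and the library at 0 sets a wide error (log2 fold change -1.45, SE 0.90). Oasl2 had 63.4, 36.9 and 42.9 against 94.2, 75.5 and 69.8, without overlap (adjusted p = 0.131). The remaining OAS-like gene was the sparsest of those tested. Oasl1 lay between 4.57 and 32.2 in all libraries and overlapped. Its log2 fold change was -0.45 (SE 0.63), and 0.20 without Foxo1Ctrl replicate 1. Oas2 was at 0 in all 3 Foxo1TKO libraries and at 11.9, 1.14 and 3.88 in Foxo1Ctrl, too few counts for a test, and a count of 0 allows up to 3 counts per library.

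The RNA sensors split. Ddx58, which encodes RIG-I, had 889, 953 and 849 counts in Foxo1TKO and 2068, 2029 and 1861 in Foxo1Ctrl, tight in both (2.21-fold lower, adjusted p = 0.00112). Zbp1, a Z-RNA sensor that triggers cell death, had 1659, 1496 and 1421 against 3337, 2594 and 3012 (1.95-fold lower, adjusted p = 0.00361). The other 4 had smaller differences that did not pass. Ifih1, which encodes the related sensor MDA5, had 582, 604 and 614 against 692, 702 and 730, separate groups only 1.18-fold apart (adjusted p = 0.278). Eif2ak2, the kinase PKR that stops translation on double-stranded RNA, had 580, 622 and 706 against 804, 884 and 767 (1.29-fold, adjusted p = 0.14). In these 2 genes the replicates were close and the step small. Dhx58, the LGP2 co-sensor, ran from 209 to 256 against 248 to 311. Adar, the RNA-editing enzyme, ran from 279 to 394 against 287 to 466. Both overlapped, and an antisense gene lies over exons of these genes and of Eif2ak2.

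The other effectors ranged from a clear fall to none. Mx1, a GTPase that traps viral nucleocapsids and that is defective in C57BL/6 mice, was low: 12.7, 11.4 and 18.2 against 60.8, 61.8 and 63.0 (4.19-fold, adjusted p = 0.00323). Isg20, an exonuclease, had 450, 529 and 594 against 782, 1612 and 812 (2.04-fold, adjusted p = 0.0411). Foxo1Ctrl replicate 2 was far above its replicates, and the call of Isg20 was lost without any 1 Foxo1TKO library (adjusted p 0.0752 to 0.128), with the GC correction (0.0725) and on the deposited signal (0.0535). Rsad2, which encodes viperin, had 9.30, 10.5 and 25.8 against 57.2, 37.7 and 28.1, just separate (adjusted p = 0.0772, and 0.0286 without Foxo1TKO replicate 3). Cmpk2, its neighbour on chromosome 12 and a mitochondrial nucleotide kinase, had 324, 145 and 186 against 482, 177 and 390, where Foxo1Ctrl replicate 2 lay inside the Foxo1TKO range (adjusted p = 0.29). Ifi44 had 6.76, 7.02 and 0 against 50.1, 35.5 and 11.6 (log2 fold change -2.53, SE 0.79, adjusted p = 0.0527). It passed the filter on low counts through Foxo1Ctrl alone, and it was past the threshold with DESeq2 (0.0102), with no filter (0.023) and without Foxo1Ctrl replicate 3 (0.0457). Of the other 43 members tested, 40 had at least 10 counts in all 6 libraries, and Oas3, Parp12 and Oasl1 had them in 4 or 5.

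Bst2, Ifi27 and Ifi35 showed no difference that passed, at levels well measured. Bst2, the tether that holds budding virus at the cell surface, had 703, 807 and 742 against 854, 895 and 776 (log2 fold change -0.16, SE 0.15). Ifi27, a mitochondrial protein, had 3408, 4027 and 3292 against 3144, 3624 and 3075 (0.12, SE 0.15). Ifi35, which joins Nmi in a cytosolic complex, had 2154, 2942 and 2626 against 2575, 2762 and 2526 (-0.03, SE 0.16), and its sign turned without Foxo1TKO replicate 1 (0.07) or Foxo1Ctrl replicate 2 (0.03). Per length, Ifi27 (365 ± 52.3 TPM) was second to Sp100 (448 ± 26.8 TPM, SD, n = 3) among the members in Foxo1TKO, and ranked 4 in Foxo1Ctrl (332 ± 11.9 TPM).

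The PARP and DTX3L group fell in 3 of 4. Parp9 and the ubiquitin ligase Dtx3l work as a pair on chromatin and are encoded head to head on chromosome 16. Dtx3l had 675, 539 and 508 against 1577, 1408 and 1412 (2.55-fold, adjusted p = 0.00128). Parp9 had 1495, 1407 and 1101 against 3146, 2081 and 3097 (2.08-fold, adjusted p = 0.00916). Their exons overlap on opposite strands and neither had whole expected counts, so the division of reads between the pair is uncertain. Parp14, an ADP-ribosyl transferase, had 775, 884 and 861 against 1617, 1512 and 1333 (1.77-fold, adjusted p = 0.00632). Parp12 had 26.2, 12.3 and 7.51 against 33.4, 44.6 and 32.9, separate but low (adjusted p = 0.106, and 0.0316 without Foxo1TKO replicate 1).

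Regulators of the response fell in 5 of 6, by about the same amount. Irf9, the DNA-binding subunit of the complex at the ISRE, had 2200, 2738 and 2332 counts in Foxo1TKO and 5225, 4646 and 4804 in Foxo1Ctrl (2.02-fold, adjusted p = 0.00241). Sp100, a nuclear body protein and the member with the second highest level per length in Foxo1Ctrl, had 9430, 10095 and 10147 against 19596, 21289 and 19551 (2.04-fold, adjusted p = 0.00157). Pml, which organizes the nuclear bodies, had 303, 196 and 254 against 630, 422 and 544 (2.11-fold, adjusted p = 0.0139), and lost its call without Foxo1TKO replicate 2 (adjusted p = 0.0635) or Foxo1Ctrl replicate 1 (0.0573). Trim30a, a negative regulator of NF-kB signalling, fell 2.33-fold (1188 ± 71.4 against 2766 ± 362, n = 3 per genotype, edgeR adjusted p = 0.00135). Phf11b, of the PHD finger Phf11 family, fell 1.79-fold (1986 ± 124 against 3567 ± 500, n = 3 per genotype, edgeR adjusted p = 0.00654). In these 5 genes no Foxo1TKO library reached the lowest control. The expected counts of Sp100, Phf11b and Trim30a were not whole in any library, so the division of their reads is uncertain too. Such counts occurred in 16 members in at least 1 library.

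Irf7, the factor that amplifies interferon production, was the exception. Its counts were 513, 338 and 198 in Foxo1TKO and 1104, 357 and 952 in Foxo1Ctrl, so the groups overlapped through Foxo1Ctrl replicate 2 (2.29-fold lower, adjusted p = 0.102). Its transcripts hold 56.4% GC, and the low control library is the one with the steep negative GC slope. Isg20, at 56.8% GC, had its highest value in that library. Whether the slope bears on the low Irf7 value was not tested. Irf7 passed with the GC correction (log2 fold change -1.27, adjusted p = 0.029), with DESeq2 (0.036), with no filter (0.0437) and without Foxo1Ctrl replicate 2 (0.023). Its antisense partner Phrf1 overlaps its exons.

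The receptor chains gave no call. Ifnar1 had 4015, 2594 and 2331 in Foxo1TKO and 7533, 3113 and 7030.4 in Foxo1Ctrl, in which replicate 2 again lay within the Foxo1TKO range (1.98-fold lower, SE 0.35 on the log2 scale, adjusted p = 0.0801). It passed with DESeq2 (0.0297), with effective lengths as offsets (0.0418), with no filter (0.0323) and without Foxo1Ctrl replicate 2 (0.0107) or Foxo1TKO replicate 1 (0.0471). Ifnar2 had 846, 693 and 686 against 911, 647 and 772, and overlapped (log2 fold change -0.07, SE 0.19, and 0.06 without Foxo1Ctrl replicate 1).

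Beyond the members, kinases, factors and inhibitors of receptor signalling moved in both directions. Stat2 had 608, 317 and 273 against 1017, 523 and 1012 (adjusted p = 0.0689). It passed with DESeq2 (0.021), effective lengths (0.0275), no filter (0.0307), limma (0.0298) and the GC correction (0.0246), and without Foxo1Ctrl replicate 2 (0.0314) or Foxo1TKO replicate 1 (0.0154). Stat4, the mediator of interleukin-12 and, in T cells, of interferon signals, had 5921, 6094 and 6064 against 9444, 10141 and 9262 (1.6-fold lower, adjusted p = 0.00796), and fell under the 1.5-fold limit with the GC correction (log2 fold change -0.58) and missed the threshold without Foxo1TKO replicate 2 (adjusted p = 0.0558). The kinases did not pass: Jak1 had a log2 fold change of -0.41 (adjusted p = 0.171) and Tyk2 of 0.00 (SE 0.27).

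The inhibitors moved apart. Socs3, which blocks gp130 and other cytokine receptors, had 16.1, 7.02 and 6.44 counts in Foxo1TKO and 609, 300 and 448 in Foxo1Ctrl (41.2-fold lower, adjusted p = 0.00021). Ptpn6, the phosphatase SHP-1, had 8114, 6436 and 5736 against 3249, 2272 and 3695 (2.20-fold higher, adjusted p = 0.00859). Socs1, the main inhibitor of Jak kinases, had 1379, 410 and 327 against 702, 151 and 821, with overlap and a log2 fold change of 0.34 (SE 0.69) that was -0.60 without Foxo1TKO replicate 1. Stat3 had 15980.3, 10431 and 8429.9 against 7144, 2464 and 6993, separate groups at an adjusted p of 0.0992. Stat3 passed as higher with DESeq2 (0.0318) and with no filter (0.0303). Among the rest of the list, Ptpn1 (log2 fold change 0.22), Ptpn2 (-0.35), Ptpn11 (0.59), Pias1 (-0.42) and Pias4 (-0.48) did not pass.

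**Figure D4:**
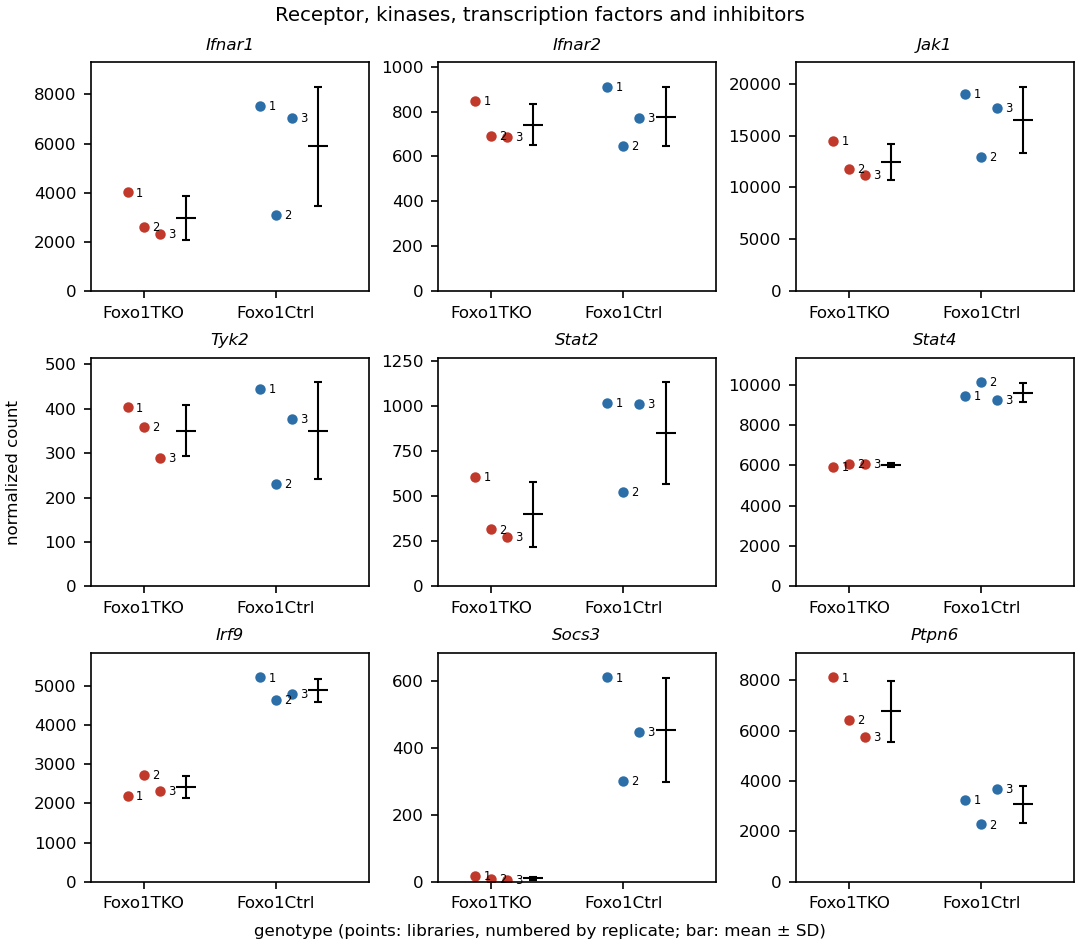
Each panel plots normalized counts, on a linear axis from 0, for receptor chains, kinases, factors and inhibitors in the 3 libraries of each genotype (points, numbered by replicate) with the mean and SD. Irf9, Stat4 and Socs3 are lower and Ptpn6 is higher without overlap, while in Ifnar1 and Stat2 Foxo1Ctrl replicate 2 lies inside the Foxo1TKO values.

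The ligands themselves were almost unseen at day 4. Of 21 ligand genes, 18 had 0 counts in all 6 libraries, which included Ifnb1 and every Ifna gene listed, and 0 allows up to 3 counts in a library. Ifnk had 3 counts in all and Ifnz 25. Ifng was the single ligand tested, with 160, 73.7 and 66.5 counts in Foxo1TKO and 39.3, 59.5 and 55.2 in Foxo1Ctrl, separate groups in the direction opposite to the members (log2 fold change 0.95, SE 0.40, adjusted p = 0.126).

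Of 16 tested genes that induce interferon, 1 rose and 1 fell, both shares below the background. Irf8, an interferon regulatory factor best known from myeloid and B cells, had 8698, 6457 and 6086 in Foxo1TKO and 1182, 789 and 1916 in Foxo1Ctrl (5.46-fold higher, adjusted p = 0.00172). Tlr7, the endosomal RNA receptor, had 54.1, 66.7 and 75.1 against 134, 121 and 164 (2.12-fold lower, adjusted p = 0.0188), and lost its call without Foxo1TKO replicate 2 (0.0693), Foxo1Ctrl replicate 1 (0.0552) or Foxo1Ctrl replicate 3 (0.0752).

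Other interferon-stimulated genes, from a list of 67 outside the members, are given beside them. Of 64 tested, 27 were lower (42.2%), 3 were higher (4.69%) and 55 had a log2 fold change below 0, with a median log2 fold change of -0.72. Over all genes tested, 11.8% were lower and 11.1% were higher. Ifi213, of the Ifi200 DNA-binding family, had 238, 290 and 150 counts against 3542, 4384 and 3089 (16.1-fold, adjusted p = 0.000122). Ifit1bl1, an Ifit1-like gene, had 1123, 1407 and 1197 against 12350, 13546 and 12299 (10.2-fold, adjusted p = 3.42e-05). Ifitm1, an entry-blocking membrane protein, had 225, 190 and 117 against 1232, 2197 and 861 (8.01-fold, adjusted p = 0.00163). These 3 genes were separate by a wide margin in every library. Ifi204 had 4.23, 0 and 0 against 22.6, 22.9 and 36.8, and its fitted fold change rests on few counts (adjusted p = 0.014). It passed the filter on low counts through Foxo1Ctrl alone, so it could be called lower but not higher. It is counted among the 27. The Ifi200 genes are close relatives and reads may be divided unevenly among them.

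3 genes of that list went the other way. Tdrd7, a tudor protein that restricts viruses, had 66.8, 103 and 133 counts in Foxo1TKO and 19.1, 18.3 and 16.5 in Foxo1Ctrl (5.37-fold higher, adjusted p = 0.00231). Tnfsf10, the death ligand TRAIL, had 956, 920 and 902 against 192, 252 and 217 (4.19-fold higher, adjusted p = 0.000235). Lap3, an aminopeptidase, had 489, 411 and 436 against 167, 184 and 243 (2.24-fold higher, adjusted p = 0.00606).

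The GTPases best known as targets of interferon gamma were lower in 17 of 17, against 11.8% of all genes tested, with a median log2 fold change of -1.69. Gvin1, a very large interferon-inducible GTPase, had 1451, 1554 and 1509 counts in Foxo1TKO and 10465, 10577 and 9689 in Foxo1Ctrl (6.80-fold, adjusted p = 3.42e-05). Gbp2 had 2809, 3287 and 3214 against 16206, 22079 and 17574 (6.00-fold, adjusted p = 0.000115). Both were close between replicates. Tgtp1 had 11144, 18958 and 19397 against 56172, 104199 and 65471 (4.56-fold, adjusted p = 0.00217), and shares sequence with Tgtp2. Gbp7 had 3143, 4657 and 4168 against 12268, 20991 and 13663 (3.92-fold, adjusted p = 0.00142). The list holds many paralogs, so its count is not of 17 independent genes. With single libraries left out, Gbp6 kept its call 0 times, Irgm2 2, Gbp8 3 and Gbp5 5 times of 6.

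**Figure D5:**
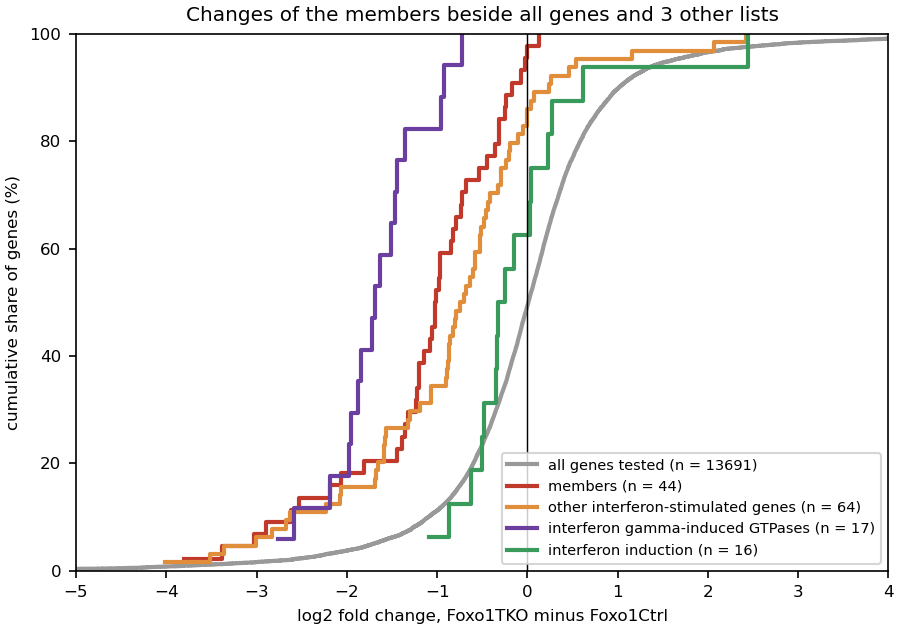
Lines give the cumulative share of genes (%) by log2 fold change of Foxo1TKO against Foxo1Ctrl. The members (median -1.02), the other interferon-stimulated genes (-0.72) and the GTPases (-1.69) lie left of all genes tested (0.01), and the interferon induction genes (-0.28) lie between.

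The study's own list of genes raised in mouse CD4 T cells by injected IFN-alpha, defined from separate public data, was also counted. Of its 422 genes 212 were tested here by symbol, 34 of them members. Without the members, 46 of 178 (25.8%) were lower and 16 (8.99%) higher. With the other lists above also set aside, 23 of 130 (17.7%) were lower and 14 (10.8%) higher, with a median log2 fold change of -0.03. Of 1368 tested genes that IFN-alpha lowered, 281 were lower (20.5%) and 84 higher (6.14%). Genes lower in Foxo1TKO thus exceeded their background share in the list IFN-alpha raised and in the list it lowered.

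Splenocytes were present in the cultures, so markers of other cells are given beside the members. The 9 B cell markers summed to 183 to 237 in Foxo1TKO and 644 to 724 in Foxo1Ctrl, and 5 of the 8 tested were lower. The 5 plasma cell markers summed to 359 to 956 and 1663 to 2518, and 2 of the 3 tested were lower. Such marker sums do not measure how much of the RNA came from these cells. The part of B lineage cells in the members' fall was not tested. The 5 plasmacytoid dendritic cell markers summed to 534 to 789 and 128 to 242, with all 3 tested higher, while the defining markers Siglech and Klk1 were under 10 counts in every library. Macrophage and monocyte markers summed to 69.3 to 100.9 and 45.7 to 61.0, 8 of 11 were under 10 counts in every library, and C1qa and C1qc were at 0 in all. Conventional dendritic cell markers summed to 178 to 249 and 198 to 296, NK cell markers to 39.7 to 64.2 and 46.5 to 90.1, erythroid markers to 233 to 384 and 296 to 426, CD8 T cell markers to 91.2 to 145 and 144 to 161, and neutrophil markers to 4.29 to 61.4 and 0 to 3.58, with 0 of the 9 genes tested among them called.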

How the data were processed

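The authors aligned reads with STAR 2.7.6a to GRCm38 and estimated gene abundance with RSEM 1.3.1 (versions from the submitters' processing notes). The deposited tables give expected counts, TPM and effective lengths per gene and library, and a deposited normalized signal table made with DESeq2. Trimming and strandedness are not given in the sources used here, so it is not known whether reads of a gene and its antisense partner were kept apart. Libraries were grouped by genotype and replicate from their titles.

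Expected counts were rounded, genes reaching 10 counts in 3 or more libraries were tested, and genotypes were compared with edgeR 4.0.16 in R 4.3.3 (TMM, glmQLFit, glmQLFTest, prior count 1, genotype as the only term). P-values were adjusted over all 13691 genes by Benjamini-Hochberg, and calls took an adjusted p below 0.05 together with a change above 1.5-fold. Log2 fold changes are Foxo1TKO against Foxo1Ctrl, and ± gives the SD over 3 libraries. TPM was used only to compare levels between genes.

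All gene lists, like the members, were chosen with earlier results of these data known. Named genes are all members, the signalling list, ligands with counts, up to 4 called genes per direction of the other lists, and Foxo1. Some values of the signalling list are not reported here. Marker lists are given as counts and sums, with markers at or near 0 named. Positions and overlaps are from GENCODE M21. Alternatives were DESeq2 1.42.0, other scalings and filters, effective lengths, limma 3.58.1 on log2(deposited signal + 1), the replicate number as a block, no fold limit and each library left out. A GC correction was added after seeing the data. The edgeR step was tested on simulated data.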

Additional observations from a re-analysis of the deposited data

How the results depend on the processing

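With 3 libraries per genotype, members with low counts such as Oas3, Oasl1 and Ifi44 had wide errors. No member was higher under any alternative. Between 21 and 27 members were lower under alternatives that kept all libraries, and 19 to 24 with 1 library left out, lowest without Foxo1TKO replicate 2. The median log2 fold change lay between -1.04 and -1.02 with all libraries kept and between -1.06 and -0.91 with 1 left out. All 22 members called lower were still called with DESeq2, DESeq2 size factors, upper quartile scaling, effective lengths, no filter and filterByExpr, 21 with limma and 20 with the GC correction.

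Same-numbered libraries deviated together in replicate 1 (correlation 0.43) and 2 (0.20) but not 3 (-0.11), and Foxo1TKO replicate 3 went best with Foxo1Ctrl replicate 2, so numbers were not taken as pairs. With the replicate block, 24 members were lower and 0 higher, with a median of -1.02, and Ifi44 and Ifnar1 passed as lower. Outside the members, Stat2 passed as lower (adjusted p = 0.0264) and Stat3 as higher (0.0418). With the block, IFN-alpha list genes outside the members numbered 45 lower and 15 higher. That list's count of higher genes was 16, and 10 to 19 with 1 library left out, lowest without Foxo1Ctrl replicate 3. Its count of lower genes was 33 to 49.

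Signs turned only for log2 fold changes near 0 or with wide errors, and no called gene turned among the members and the signalling list. Lgals3bp was 0.00556 with DESeq2, 0.00571 with its size factors, 0.0188 with no filter and 0.023 with the replicate block, and -0.40 to 0.25 with 1 library left out. Tyk2 was 0.00632, 0.00624, 0.016 and 0.0319 in the same settings and 0.000498 with filterByExpr, and -0.21 to 0.20 with 1 library left out. With 1 library left out, Oasl1 ran from -0.86 to 0.20, Ifi35 from -0.13 to 0.073, Ifnar2 from -0.18 to 0.059, Socs1 from -0.60 to 0.73 and Ptpn1 from -0.012 to 0.46. The cause was not tested.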
